A study of Mus musculus with 24 samples.

Results

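The genes of the mitochondrial respiratory chain and ATP synthase were followed through 2 circadian cycles in the mouse suprachiasmatic nucleus (SCN), the hypothalamic nucleus that holds the central circadian clock. Members were all genes whose array symbol starts with Nduf followed by a, b, c, s or v (complex I and its assembly factors), is Sdha to Sdhd (complex II), or starts with Uqcr (complex III), Cox4 to Cox8 (complex IV) or Atp5 (complex V). The rule found 89 genes among the 19938 genes with a probe set of their own, and 86 of them, among 13956 genes in all, were bright enough to be tested. Complex I held 41 genes, complex II 4, complex III 8, complex IV 19 and complex V 17. The 3 genes left out as too dim were Cox7b2, Cox8c and Ndufa4l2, each an isoform or relative of a complex IV subunit. Ndufa4 and Ndufa4l2 were counted with complex IV, where the Ndufa4 protein is now placed. The cytochrome c1 gene Cyc1 does not match the rule and is given with the neighbouring genes at the end.

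Each of the 24 arrays was RNA of SCN tissue pooled from 3 C57/BL6 mice that had been trained to a light-dark schedule and then kept in constant darkness. Tissue was taken every 2 h in circadian time (CT), from CT 42 to CT 64 in the second cycle (12 arrays) and from CT 18 to CT 40 in the first (12 arrays), so that CT 24 and CT 48 share circadian time 0. No group carried a mutation or a drug, and there was 1 array per time, so the scatter of the arrays around a fitted curve served as error and includes differences between pools. All values are log2 probe set intensities, which can be compared between arrays for a gene but not between genes. All 12 markers of SCN neurons, among them Avp, Vip and Six6, were past the brightness limit. So were all measured markers of oligodendrocytes (9), astrocytes (6), microglia (5), endothelium (4) and ependyma (4), so passing this limit does not by itself show how pure the tissue was. In bulk tissue, fewer cells of a type and less RNA per cell cannot be told apart.

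The respiratory chain takes electrons from NADH at complex I and from succinate at complex II, passes them through complex III to cytochrome c and complex IV, which reduces oxygen, and stores the energy as a proton gradient across the inner mitochondrial membrane. Complex V, the ATP synthase, lets protons back through its membrane part Fo and makes ATP in its F1 head. The subunits of complexes I, III, IV and V come from both the nuclear and the mitochondrial genome, and neurons depend on this machinery heavily because restoring ion gradients after firing costs ATP.

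Nuclear genes of the chain are known targets of the factors NRF1 and GABPA, and clock-controlled genes often carry the E-box that CLOCK and BMAL1 bind. Motifs of these factors, of YY1 and of the D-box were therefore looked up as letters in the RefSeq promoter windows (GRCm38.p6, 250 bases before to 50 after the start), which 73 members had in 78 windows. The NRF1 core GCGCATGCG, on either strand, was in 12.8% of the members' windows and in 3.16% of all 14100 windows. The ETS motif CCGGAAG, which GABPA binds, was in 23.1% of the members' windows and 14.8% of all windows. For the YY1 motif AAGATGGCG the shares were 8.97% and 2.5%, for the E-box CACGTG 8.97% and 9.41%, and for the D-box TTATGTAA 1.28% and 0.603%. Windows of 4 genes are shown because they belong to genes described further on: the gene with the widest 24-h swing (Atp5g2), a rhythmic assembly factor (Ndufaf4), and the genes Atp5g1 and Atp5g3, which encode the same mature protein as Atp5g2. Each is read 5′ to 3′ on the strand of its gene, with the NRF1 core (the first 2) or the E-box (the last 2) in capitals.
Atp5g2 chr15:102671036-102671134 (minus strand): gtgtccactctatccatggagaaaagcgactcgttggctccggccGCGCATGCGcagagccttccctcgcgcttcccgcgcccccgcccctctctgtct
Ndufaf4 chr4:24897925-24898023 (plus strand): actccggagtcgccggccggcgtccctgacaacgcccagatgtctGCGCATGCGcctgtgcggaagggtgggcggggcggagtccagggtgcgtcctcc
Atp5g1 chr11:96075625-96075720 (minus strand): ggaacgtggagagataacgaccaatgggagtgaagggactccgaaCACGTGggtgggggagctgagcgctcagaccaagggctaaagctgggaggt
Atp5g3 chr2:73911514-73911576 (minus strand): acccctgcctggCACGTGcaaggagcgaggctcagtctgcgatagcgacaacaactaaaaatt
The NRF1 core in the Atp5g2 window began 42 bases before the annotated start and the one of Ndufaf4 113 bases before it. The E-box began 44 bases before the start of Atp5g1 and 238 bases before that of Atp5g3. Among the 7 rhythmic members with a window, 1 held the NRF1 core, 1 the ETS motif, and none the YY1 motif, the E-box or the D-box.

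The arrays were alike in their medians (6.24 to 6.35) but not in their spread. The interquartile range was 2.48 at CT 40, 2.67 at CT 62 and 2.65 at CT 64, against 2.72 to 2.90 on the other 21 arrays. The mean of 1194 olfactory and vomeronasal receptor genes, used as a measure of array background, was higher by 0.34, 0.19 and 0.16 on those 3 arrays than over all arrays. These arrays fall at CT 14 and CT 16 of the cycle, close to the trough or the peak of the rhythms below, so results are given with and without them.

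A 24-h rhythm passed the test in 10 of the 86 members (11.6%), against 7.65% of all genes tested (limma moderated F test, Benjamini-Hochberg adjusted p under 0.05 over all 13956 genes). Those 10 came in opposite phases. Sdha, Atp5a1, Atp5b and Ndufa10 had fitted peaks between CT 1.9 and CT 2.4, just after subjective dawn. Ndufa2, Uqcrb, Ndufb7, Ndufaf4, Cox7a1 and Cox8b had fitted peaks between CT 12.4 and CT 14.6, in the early subjective night. The rhythms were small, with amplitudes (mean to peak) of 0.12 to 0.25 log2 units. The median amplitude of the members was 0.07, the same to 2 decimals as that of all genes tested. At an unadjusted p under 0.05, 26 of 86 members passed, against 27.5% of all genes, 13 with peaks between CT 20 and CT 8 and 13 between CT 8 and CT 20.

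None of the 10 rhythms passed the threshold once CT 40, CT 62 and CT 64 were left out, where limma called 0 of 86 members (22 at an unadjusted p under 0.05) against 4.87% of all genes. None passed with the array background as a covariate either, with 0 of 86 called (13 at an unadjusted p under 0.05) against 3.83% of all genes. With the mean of 9 oligodendrocyte markers as a covariate, 28 of 86 members passed (32.6%), against 24.3% of all genes, and all 10 were among them. That marker mean was -0.22 on average at CT 0 to 4 and 0.00 at CT 12 to 16, and it was lowest at CT 40 (-0.66). The mean of the 12 SCN neuron markers, several of which cycle themselves, was 0.10 at CT 0 to 4 and -0.16 at CT 12 to 16, and lowest at CT 64 (-0.55). The part of these cell types in the rhythms was not tested beyond the covariate fit.

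**Figure D1:**
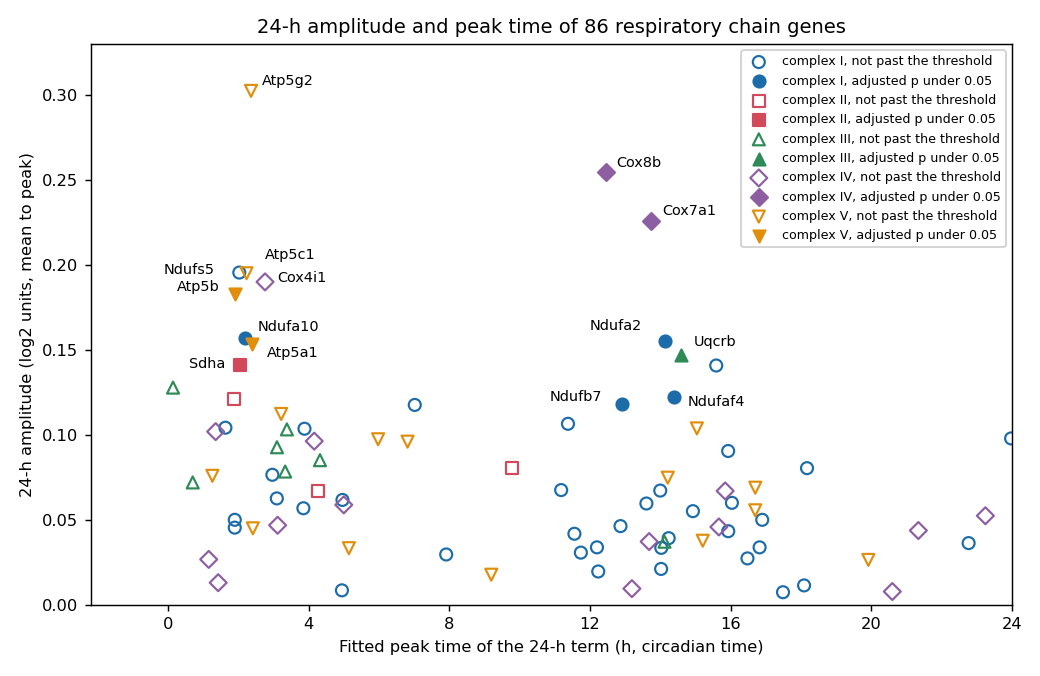
The fitted 24-h amplitude (log2 units, mean to peak) is plotted against the fitted peak time (h) for the 86 tested members, with a marker for each complex and filled symbols for the 10 past the threshold. The filled symbols stand near CT 2 and between CT 12.4 and CT 14.6, and Atp5g2, at 0.30, has the widest swing without passing the threshold.

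The rhythmic members with a morning peak included 2 of the 5 genes of F1, the catalytic head of ATP synthase. The others encode the flavoprotein of complex II and an accessory subunit of complex I. Atp5b encodes the catalytic beta subunit of F1. It ranged from 10.47 (CT 40) to 11.42 (CT 46) with a median of 11.24, and lay at 11.09, 11.37 and 11.38 (lowest, median and highest of 6 arrays) at CT 0 to 4, against 10.47, 11.02 and 11.05 at CT 12 to 16. Every dawn array was above every dusk array, and the amplitude was 0.18 ± 0.04 (SE), a 1.29-fold change from trough to peak (adjusted p = 0.0319, limma). Atp5a1, the alpha subunit that forms the F1 ring with beta, ran from 10.22 (CT 40) over a median of 10.70 to 10.92 (CT 48). Its lowest value at CT 0 to 4 (10.67) was above its highest at CT 12 to 16 (10.59), and the amplitude was 0.15 ± 0.04 (1.24-fold, adjusted p = 0.0302, limma). Both F1 genes were on the same side of their own mean on 23 of 24 arrays.

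Sdha encodes the flavoprotein that oxidises succinate, an enzyme shared by the chain and the citrate cycle. Its values ran from 9.64 (CT 40) over a median of 10.07 to 10.23 (CT 20). At CT 0 to 4 they lay between 9.97 and 10.18, against 9.64 to 9.95 at CT 12 to 16, without overlap. The amplitude was 0.14 ± 0.03, a 1.22-fold change (adjusted p = 0.024, limma). Ndufa10, an accessory subunit of the membrane arm of complex I, ran from 9.53 (CT 40) over a median of 10.25 to 10.44 (CT 28). It lay between 10.22 and 10.44 at CT 0 to 4, against 9.53 to 10.15 at CT 12 to 16, again without overlap. Its amplitude was 0.16 ± 0.04 (1.24-fold, adjusted p = 0.0453, limma). All 4 genes were lower on the 3 arrays of narrow spread than on the other 21, by 0.31 (Sdha) to 0.42 (Atp5b) log2 units.

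Counted over all members, 7 of 86 (8.14%) had every array at CT 0 to 4 above every array at CT 12 to 16, against 3.98% of all genes, and 0 had the reverse, against 0.86%. Besides the 4 genes above, these were Atp5c1, Sdhd and Uqcrc2. Atp5c1 encodes the gamma subunit, the shaft that turns inside F1. It ran from 9.28 (CT 40) over a median of 10.47 to 10.67 (CT 48), with a fitted peak at 2.23 h and an amplitude of 0.20 ± 0.06 that did not pass the test (adjusted p = 0.111, limma). The membrane anchor Sdhd (0.12 ± 0.04, peak 1.87 h, adjusted p = 0.11) and the core protein Uqcrc2 (0.09 ± 0.04, peak 3.10 h, adjusted p = 0.187) also stayed short of the threshold. Without CT 40, CT 62 and CT 64, 9 of 86 members (10.5%) were higher at CT 0 to 4 without overlap, against 6.2% of all genes, and 1 (Ndufaf4) was lower, against 5.45%. The 9 were the same 7 genes with Ndufab1 and Ndufs1 added. With 3 arrays left in the dusk window, a separation is easier to reach.

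The 6 rhythmic members with an evening peak were spread over complexes I, III and IV. Ndufa2, an accessory subunit of the complex I matrix arm, ran from 10.78 (CT 28) over a median of 10.97 to 11.49 (CT 40). It lay at 10.78, 10.87 and 11.14 at CT 0 to 4 (lowest, median, highest), against 10.99, 11.23 and 11.49 at CT 12 to 16. The windows overlapped, and the amplitude was 0.16 ± 0.04 with a peak at 14.1 h (1.24-fold, adjusted p = 0.028, limma). Uqcrb, a small subunit of complex III near the quinone site, ran from 10.08 (CT 54) over a median of 10.40 to 10.84 (CT 40). Its amplitude was 0.15 ± 0.04 with a peak at 14.6 h (1.23-fold, adjusted p = 0.0293, limma). At CT 0 to 4 it reached 10.43 at most, against a lowest value of 10.40 at CT 12 to 16, so the windows barely overlapped. All 3 probe sets that carry the Uqcrb symbol had evening peaks (14.5 to 14.9 h) and amplitudes from 0.12 to 0.17.

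Ndufb7 belongs to the membrane arm of complex I. Its median was 11.11, with the highest array at CT 40 (11.50) and the lowest at CT 52, and it peaked at 12.9 h in the fit (amplitude 0.12 ± 0.03, 1.18-fold, adjusted p = 0.0452, limma). It reached 11.28 at most at CT 0 to 4, against a lowest value of 11.10 at CT 12 to 16, so the windows overlapped. Ndufaf4 acts in building complex I and is no part of the finished enzyme. Its values ran from 8.16 (CT 48) over a median of 8.38 to 8.67 (CT 40), the amplitude was 0.12 ± 0.03 and the peak lay at 14.4 h (1.18-fold, adjusted p = 0.049, limma). Of the 10, it was the call nearest to the threshold. It lay between 8.16 and 8.57 at CT 0 to 4, against 8.48 to 8.67 at CT 12 to 16. None of the other 6 assembly factors of the Ndufaf series passed (adjusted p from 0.247 to 0.513).

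The remaining evening genes are isoforms of complex IV subunits best known from striated muscle. Cox7a1 ran from 6.92 (CT 50) over a median of 7.55 to 8.19 (CT 40), and its fitted curve, of amplitude 0.23 ± 0.06, peaked at 13.7 h (1.37-fold, adjusted p = 0.0356, limma). It lay between 6.92 and 7.60 at CT 0 to 4, against 7.56 to 8.19 at CT 12 to 16, an overlap of a few hundredths. Cox8b was dim, with a mean of 5.63 close to the brightness limit of 5.52, and scattered widely from 4.97 (CT 44) over a median of 5.66 to 6.16 (CT 58). It lay between 5.15 and 5.82 at CT 0 to 4, against 5.70 to 6.02 at CT 12 to 16. The fitted amplitude was 0.25 ± 0.07 with a peak at 12.4 h (1.42-fold, adjusted p = 0.0439, limma). Of the meningeal markers 3 of 4 were past the limit, and their list mean ran from -0.59 to 0.07 at CT 0 to 4 and from -0.10 to 0.58 at CT 12 to 16; its part in the evening rhythms was not tested. The muscle markers Myh7, Actn2 and Ckm were past the brightness limit and Myh6 was not, with mean log2 values of 5.22 to 6.49 for the 4. Their list mean ran from -0.12 to 0.12 at CT 0 to 4 and from -0.02 to 0.12 at CT 12 to 16, and its part in the muscle isoforms was not tested. With 4 of 6 markers past the limit, the anterior pituitary list averaged 0.09 at CT 0 to 4 and -0.36 at CT 12 to 16, and its part was not tested either. All 6 evening genes were higher on the 3 narrow arrays than on the other 21, by 0.14 (Ndufaf4) to 0.36 (Cox7a1) log2 units.

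**Figure D2:**
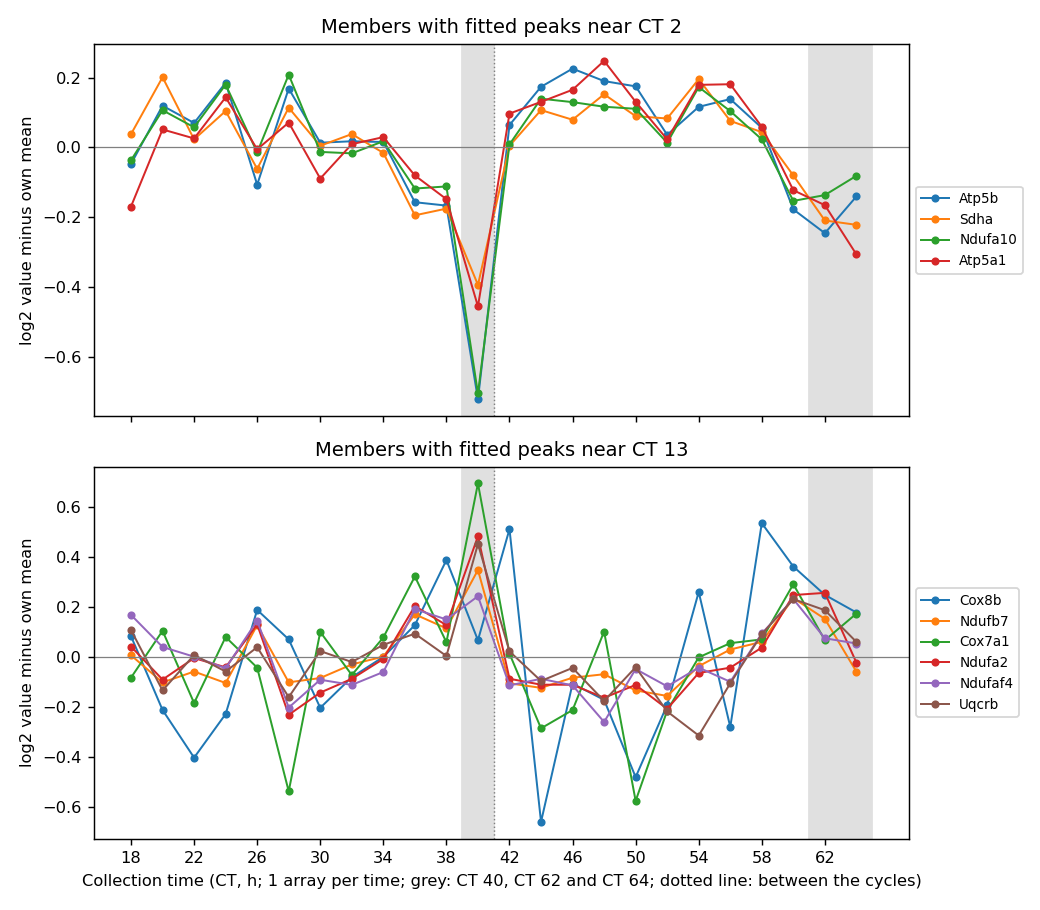
Log2 values of the 10 rhythmic members, each minus its own mean, are plotted against collection time (CT, h) with 1 point per array, the 4 morning genes above and the 6 evening genes below, and grey bands at CT 40, CT 62 and CT 64. The morning genes share a drop at CT 40 (Atp5b 10.47, Ndufa10 9.53), where 5 of the 6 evening genes are at their highest, and Cox8b scatters most.

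The 10 rhythms were fitted again without the 3 narrow arrays and with the background covariate. Without those arrays, the amplitudes of the 4 morning genes were 0.09 to 0.12 and their peaks moved to between CT 0.76 and CT 1.51, with adjusted p from 0.0635 (Ndufa10) to 0.161 (Atp5a1). Cox8b (0.26 without the arrays and 0.25 with them) and Ndufaf4 (0.12 in both fits) kept their amplitudes, with adjusted p = 0.0939 and 0.114. The other 4 evening genes had amplitudes of 0.10 to 0.19, with adjusted p from 0.0706 to 0.109. With the background covariate the morning genes were at 0.06 to 0.08 and the evening genes at 0.08 to 0.25, and adjusted p ran from 0.132 (Cox8b) to 0.468 (Ndufa10). In no fit did the peak of any of the 10 move by more than 6 h. These are limma fits with p-values adjusted over all genes tested.

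**Figure D3:**
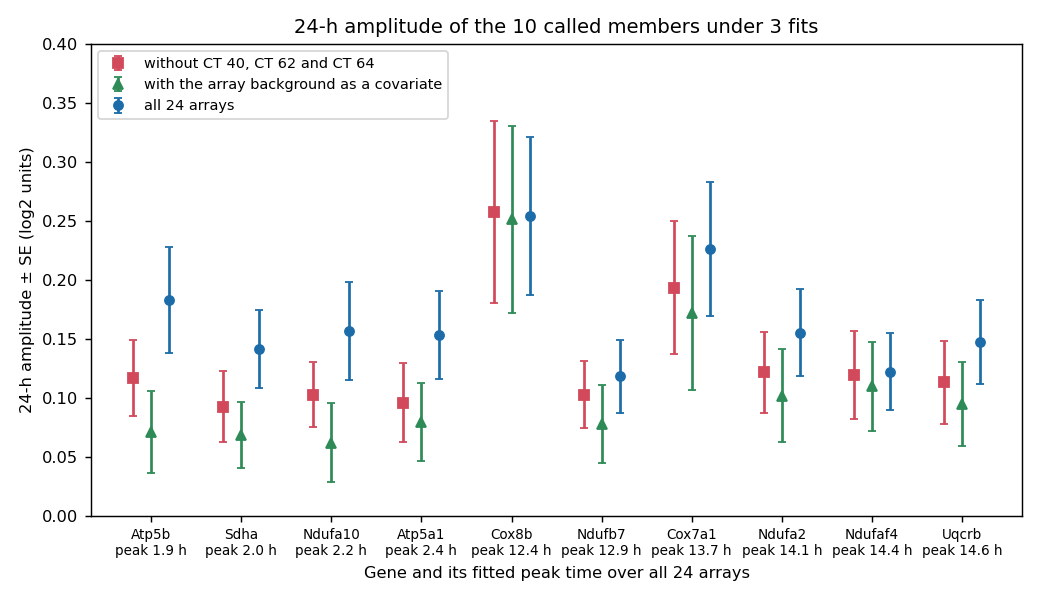
The 24-h amplitude with its SE (log2 units) is shown for the 10 rhythmic members in order of their peak, without CT 40, CT 62 and CT 64 (squares), with the array background as a covariate (triangles) and with all 24 arrays (circles). Cox8b stays at 0.25 to 0.26 in all 3 fits, while Atp5b is at 0.12, 0.07 and 0.18.

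Compared by complex, the rhythmic share was 4 of 41 (9.76%) in complex I and 1 of 4 (25%) in complex II. It was 1 of 8 (12.5%) in complex III, 2 of 16 (12.5%) in complex IV and 2 of 17 (11.8%) in complex V. The share over all genes tested was 7.65%. Within complex V both calls were F1 genes (2 of 5), and 0 of 12 genes of the membrane part and stalk were called (limma, 3 at an unadjusted p under 0.05). Within complex IV both calls were isoforms (2 of 6 tested), and 0 of 10 main subunits were called (limma, 1 at an unadjusted p under 0.05). In complex I, 3 of 28 accessory subunits, 1 of 7 assembly factors and 0 of 6 core subunits were called (limma, 2 core subunits at an unadjusted p under 0.05). Each of these counts was 0 without the 3 narrow arrays (4.87% of all genes called) and with the background covariate (3.83%). Differences between these shares were not tested. Peaks fell between CT 20 and CT 8 in 15 of 41 genes of complex I, 3 of 4 of complex II, 6 of 8 of complex III, 10 of 16 of complex IV and 10 of 17 of complex V. Over all members that was 44 of 86 (51.2%), against 56.6% of all genes tested. Without the 3 narrow arrays it was 36 of 86, with 10, 3, 6, 8 and 9 genes in complexes I to V. With the background covariate it was 21 of 86, with 7, 2, 2, 4 and 6 genes, so the split by complex depended on the fit. The shares of all genes in these fits are not given.

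Several subunits with wide swings were not called. Atp5g2, which encodes the c subunit of the proton-driven rotor ring, swung by 0.30 ± 0.09 around its mean, peaking at 2.36 h (adjusted p = 0.072, limma). Its values ran from 8.45 (CT 40) over a median of 10.10 to 10.43 (CT 54), and without the 3 narrow arrays the amplitude was 0.18 ± 0.05 (adjusted p = 0.101). Ndufs5 (0.20 ± 0.07, peak 2.03 h, adjusted p = 0.154) and Cox4i1, the main form of subunit 4 (0.19 ± 0.09, peak 2.76 h, adjusted p = 0.331), likewise peaked in the morning and were lowest at CT 40. Without the narrow arrays their amplitudes were 0.10 and 0.06. With the background covariate Ndufs5 was at 0.04 ± 0.06 (peak 4.58 h) and Cox4i1 at 0.08 ± 0.07, with its peak at 10.4 h. In complex III, the small subunits Uqcrq (0.13 ± 0.04, peak 0.14 h, adjusted p = 0.0924) and Uqcr11 (0.10 ± 0.06, peak 3.38 h, adjusted p = 0.439) followed Uqcrb in amplitude with all 24 arrays, and had morning peaks. Without the narrow arrays Uqcrq was at 0.11 ± 0.04 and Uqcr11 at 0.01 ± 0.03. With the background covariate the Uqcr11 peak lay late in the subjective day. The other, dimmer probe set of Uqcr11 had an amplitude of 0.20, so its rank depended on the probe set.

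The smallest 24-h amplitudes of each complex differed in size. Complex IV subunits Cox7b (0.01 ± 0.03) and Cox6b1 (0.01 ± 0.02), the complex I subunits Ndufb5 (0.01 ± 0.03) and Ndufb3 (0.01 ± 0.06), and the ATP synthase genes Atp5j2 (0.02 ± 0.02) and Atp5pb (0.03 ± 0.03) had the smallest amplitudes of their complexes. A small amplitude over both cycles is not always a flat curve: Ndufb3 ran from 7.35 (CT 40) over a median of 8.22 to 8.39. Its fitted peaks differed between the cycles, though no change in its rhythm was called. Cox6b1 ran only from 12.61 to 12.87 over the 24 arrays. In complex III the smallest amplitudes were those of Uqcrfs1, the Rieske iron-sulphur protein that hands electrons to cytochrome c1 (0.04 ± 0.02), and Uqcrh (0.07 ± 0.04). Complex II, with 4 genes, had its smallest amplitudes in the membrane anchor Sdhc (0.07 ± 0.03) and the iron-sulphur subunit Sdhb (0.08 ± 0.03). Sdhb peaked at 9.78 h, against 2.04 h for Sdha, its partner in the catalytic part of the enzyme.

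Paralogs within a family differed in their measured curves, though the differences themselves were not tested. The genes Atp5g1, Atp5g2 and Atp5g3, whose promoter windows are printed above, had amplitudes of 0.10 ± 0.04, 0.30 ± 0.09 and 0.08 ± 0.04 with peaks at 5.97, 2.36 and 1.26 h. All 3 were lowest at CT 40. Atp5g2 has 3 probe sets, which gave amplitudes of 0.28 to 0.32 and peaks within 0.1 h of each other. Cox7a1 was rhythmic, while its ubiquitous counterpart Cox7a2 (0.05 ± 0.03, adjusted p = 0.366) and the supercomplex factor Cox7a2l (0.06 ± 0.03, adjusted p = 0.403) did not pass. Cox8b passed and the ubiquitous Cox8a (0.10 ± 0.05, peak 4.16 h, adjusted p = 0.317) did not. Neither the main forms Cox4i1, Cox6a1 and Cox6b1 nor their alternates Cox4i2, Cox6a2 and Cox6b2 passed, the lowest adjusted p being 0.202 for Cox6a1. Probe sets of close paralogs and of processed pseudogenes can share targets, so values within a family are less certain than those of lone genes.

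The CT 40 array held the widest departures of the members. Relative to the mean of the other 23 arrays, 37 of 86 members (43%) were lower by over 0.3 log2 units, against 25.5% of all genes, and 9 (10.5%) were higher by over 0.3, against 12.1%. CT 40 was the lowest of the 24 arrays for 46 members (53.5%, against 29.6% of all genes) and the highest for 15 (17.4%, against 15.6%). The deepest drops were those of Cox4i1 (-1.81), Atp5g2 (-1.66), Ndufs5 (-1.34), Atp5c1 (-1.19) and Uqcr11 (-1.05). The rises were led by Cox7a1 (0.72) and Ndufa1 (0.71). As a share, complex II had 3 of 4 genes lower, complex III 5 of 8, complex V 9 of 17, complex IV 7 of 16 and complex I 13 of 41. This is 1 array, with no replicate at that time. CT 64, at the same circadian time 24 h later, was the lowest array for 2 members (2.33%, against 9.02% of all genes). It was the highest for none, against 3.49% of all genes.

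**Figure D4:**
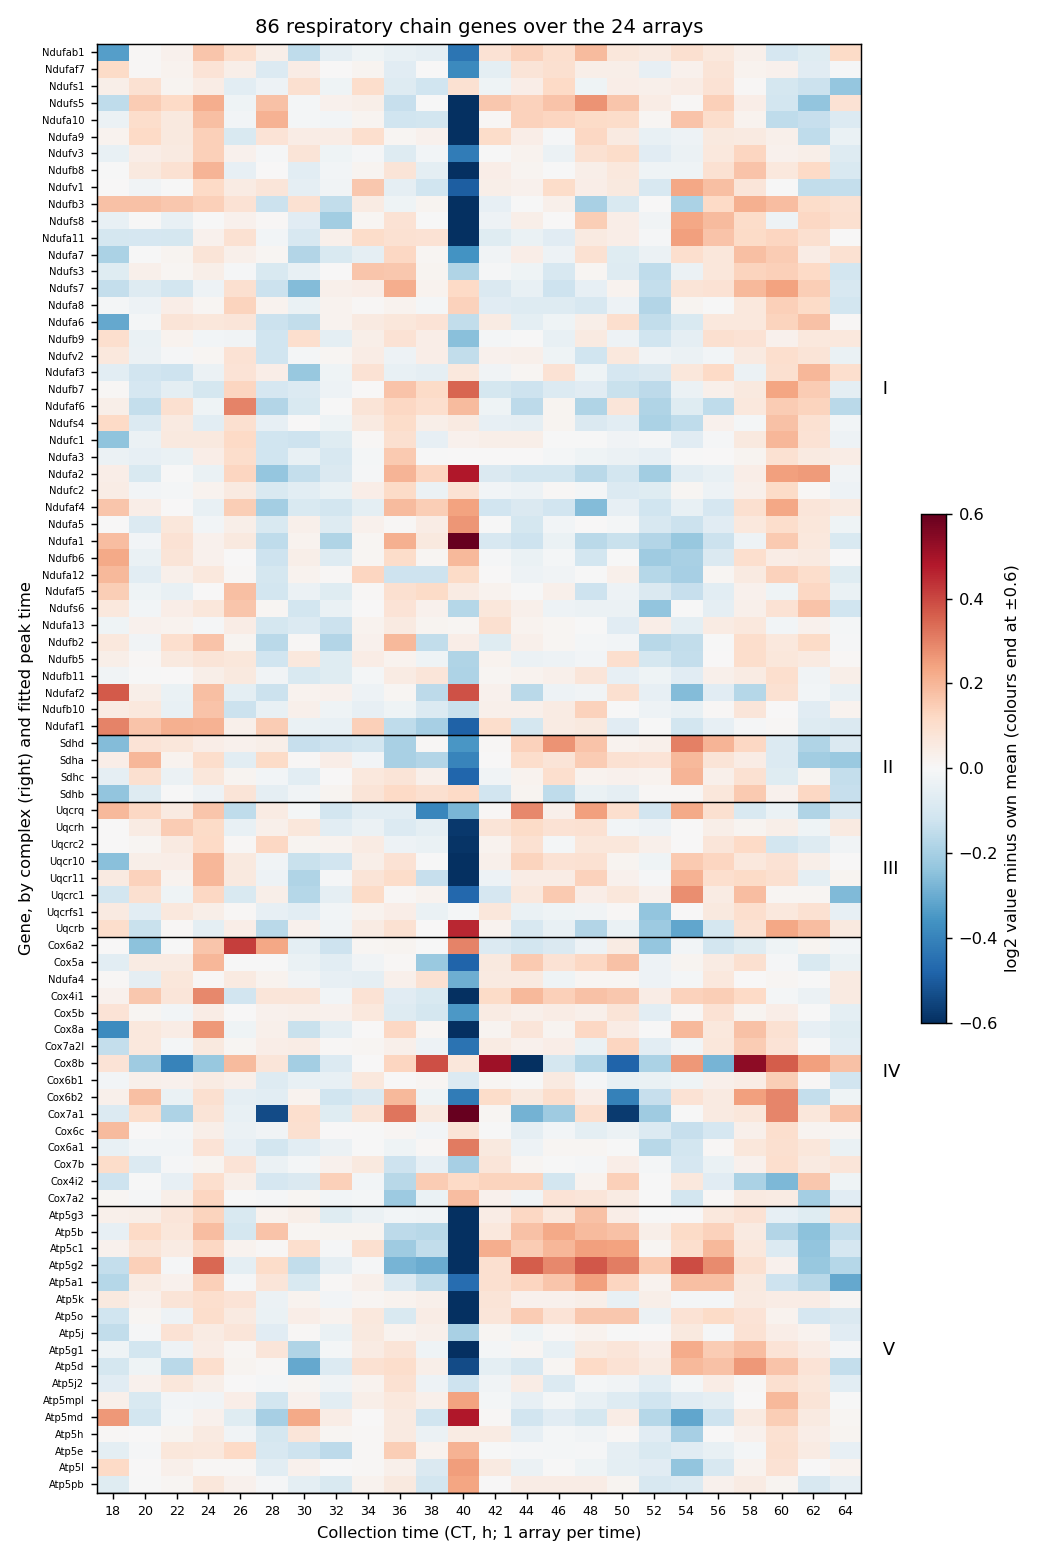
Each row is 1 of the 86 tested members, grouped by complex (I at the top, V at the bottom) and ordered by fitted peak time, and each column is 1 array by collection time (CT, h), with colour for the log2 value minus the gene's own mean. The CT 40 column holds the deepest blues, in 37 genes by over 0.3, and reds such as Ndufa1 and Cox7a1, while most other cells outside the Cox8b and Cox7a1 rows are pale.

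Averaged over its genes, no complex swung far. The mean of complex II had an amplitude of 0.08 ± 0.02 log2 units (SE of the fit over 24 arrays) and a peak at 3.39 h, complex V 0.05 ± 0.02 at 2.64 h, and complex III 0.04 ± 0.03 at 2.35 h. For complexes I (0.01 ± 0.02) and IV (0.01 ± 0.02) the amplitude was below its error in this fit. CT 40 was the lowest array of all 5 means, at -0.15 (I), -0.27 (II), -0.40 (III), -0.18 (IV) and -0.36 (V). Without CT 40 alone the amplitudes were 0.02, 0.06, 0.02, 0.02 and 0.03 for complexes I to V, and without all 3 narrow arrays 0.03, 0.04, 0.02, 0.02 and 0.02. With the background covariate, complexes I and IV had amplitudes of 0.04 ± 0.02 each, with evening peaks (13.3 and 12.9 h), complex II 0.04 ± 0.02 (5.52 h), complex III 0.03 ± 0.02 and complex V 0.02 ± 0.02. The peak of complex III was unstable, at 22.6 h without CT 40, 20.9 h without the 3 narrow arrays and 12.2 h with the covariate, and that of complex V moved to 9.04 h with the covariate. No p-value is given for these means, since the genes of a complex share arrays. At CT 0 to 4 the complex II mean lay between 0.01 and 0.08, against -0.27 to -0.01 at CT 12 to 16, without overlap, and the windows of the other 4 means overlapped.

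**Figure D5:**
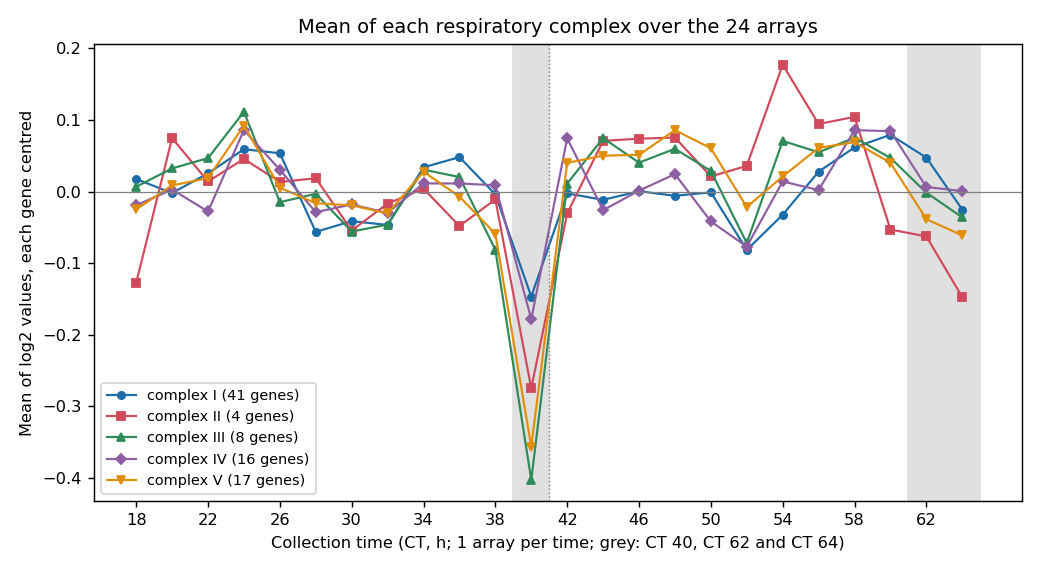
The mean of the centred log2 values of each complex is plotted against collection time (CT, h), with 1 point per array and grey bands at CT 40, CT 62 and CT 64. All 5 lines dip at CT 40, complexes III and V most (-0.40 and -0.36), and otherwise stay within 0.2 of their mean.

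Members tended to lie on the same side of their own mean on somewhat more arrays than they shared with other genes. A pair of members of the same complex agreed in side on a median of 14 of 24 arrays, a pair from different complexes on 13, and a member and another gene on 12. Pairs that agreed on at least 20 arrays made up 3.69% within complexes, 3.34% between complexes and 0.87% of pairs of a member and another gene. The closest pairs lay both within and between complexes: Atp5a1 lay on the same side as Atp5b (complex V), Ndufa10 and Ndufs5 (both complex I) on 23 arrays each, while Atp5b and Sdha, and Ndufa2 and Ndufb7, shared their side on 22. All pairs share the 24 arrays and their differences in spread. Pairs among other genes, or among genes of like brightness, were not counted, so it is not known whether they agree as often.

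Between the cycles no member changed past the threshold. For the second against the first cycle limma called 0 of 86 members, as it called 0 percent of all genes, with 11 members (9 of them higher in the second cycle) and 8.71% of all genes at an unadjusted p under 0.05. The smallest p belonged to Sdhd, which averaged 7.65 ± 0.15 in the second cycle and 7.49 ± 0.14 in the first (SD, n = 12 arrays each; difference 0.15 ± 0.05 SE, adjusted p = 0.409, limma). It was higher in the second cycle in 9 of the 12 pairs of arrays at the same circadian time. Atp5g2 averaged 10.21 ± 0.21 in the second cycle and 9.88 ± 0.48 in the first, higher in 12 of 12 pairs (0.33 ± 0.11, adjusted p = 0.428, limma). Ndufa1, a small X-linked subunit of the complex I membrane arm, averaged 10.95 ± 0.11 in the second cycle and 11.11 ± 0.22 in the first. It was lower in 10 of 12 pairs (-0.16 ± 0.06, adjusted p = 0.446, limma). The first cycle includes CT 40, at 8.45 for Atp5g2 and 11.71 for Ndufa1, against 9.87 and 10.94 at CT 64. Over all members 53 were higher and 33 lower in the second cycle, with a median difference of 0.03 against 0.00 over all genes, of which 52.2% were higher in the second cycle. The anterior pituitary marker list averaged -0.40 in the second cycle and 0.40 in the first, and was highest at CT 20 (2.49), and its part in the cycle differences was not tested. The means of complexes I to V differed by 0.01, 0.06, 0.06, 0.02 and 0.06, and by -0.01, 0.04, 0.03, 0.01 and 0.03 without CT 40.

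A 12-h rhythm beside the 24-h one was called by limma in 0 of 86 members, against 0.0358% of all genes (25 members and 21.9% of all genes at an unadjusted p under 0.05). The smallest p belonged to the core subunit Ndufs3 (12-h amplitude 0.09 ± 0.02, adjusted p = 0.115) and the accessory subunit Ndufa6 (0.11 ± 0.03, adjusted p = 0.117), both of complex I. Ndufs3 ran from 9.92 (CT 40) over a median of 10.10 to 10.27 (CT 34), and Ndufa6 from 9.70 (CT 18) over 10.05 to 10.18 (CT 62). A change of the 24-h rhythm between the cycles was called in 0 of 86 members and 0 percent of all genes (limma, 1 member and 2.42% of all genes at an unadjusted p under 0.05). That member was Ndufaf4, with a fitted peak at 12.2 h in the second cycle and 16.5 h in the first (adjusted p = 0.9999). Ndufb3 came next (unadjusted p = 0.0549, limma), with peaks at 12.6 h in the second cycle and 0.97 h in the first. The amplitudes were 0.14 ± 0.04 and 0.15 ± 0.10 (SE), and neither cycle alone passed (limma adjusted p = 0.17 and 0.713). Its lowest array, CT 40 (7.35), belongs to the first cycle, where its median was 8.25.

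Genes that work beside the chain were read from the same fit. Of the mitochondrially encoded subunits only mt-COX2 and mt-ND3 had a probe set of their own, and neither was rhythmic (amplitudes 0.04 ± 0.03 and 0.06 ± 0.03, adjusted p = 0.59 and 0.361, limma). Among 15 chain genes outside the symbol rule 1 was called, Coq10b, a ubiquinone-binding protein (0.14 ± 0.04, peak 6.09 h, adjusted p = 0.0357). Cyc1, the cytochrome c1 gene, and the cytochrome c gene Cycs did not pass (adjusted p = 0.0733 and 0.593). Of 27 assembly factors 4 passed: Oxa1l, which inserts proteins into the inner membrane, Atpaf2, which builds F1, and Ecsit, which acts in complex I assembly, had peaks at 3.77, 3.39 and 4.07 h, and Cox19, a complex IV factor, at 13.8 h. Among 15 regulators the only call was Gabpa, a subunit of the GABP factor, with a peak at 21.5 h (0.16 ± 0.04, adjusted p = 0.0311). In the citrate cycle 2 of 15 genes passed, Idh3a and Idh3b, subunits of the NAD-dependent isocitrate dehydrogenase, with peaks at 2.47 and 2.44 h. As shares, these calls were 6.67% (outside the rule), 14.8% (assembly factors), 6.67% (regulators) and 13.3% (citrate cycle), against 7.65% of all genes tested. Without the 3 narrow arrays Oxa1l (limma adjusted p = 0.0496), Gabpa (0.0167) and Coq10b (0.0331) still passed, where 4.87% of all genes did. With the background covariate Oxa1l (0.0498) and Gabpa (0.0199) passed, where 3.83% of all genes did.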

How the data were processed

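Per the labels' protocols, RNA of 3 mice was pooled in equal amounts for each time, amplified and biotin-labelled with NuGen kits and hybridised to Affymetrix mouse gene arrays. The deposited values are log2 intensities of 35556 probe sets, made by the authors with RMA 1.3.1.187 in Affymetrix Expression Console, per the submitters' processing notes. The number of arrays, 1 per time, limits the precision. Here each gene took its brightest probe set with 1 symbol in the platform annotation, and the dimmest genes, under log2 5.52 on average (the 30th percentile), were not tested. Fits used limma 3.58.1 in R 4.3.3 (cosine and sine terms of 24 h, with a cycle term, 12-h terms or an interaction added for the other tests), eBayes, two-sided tests and Benjamini-Hochberg adjustment over all 13956 genes at 0.05, with 21 residual degrees of freedom for the 24-h rhythm. The fits were tested on simulated data. Figures used matplotlib 3.10.9. The members, gene lists and tests were chosen with earlier results of these data known. Members named are all rhythmic ones, the 3 of largest and 2 of smallest amplitude in each complex, the smallest p of the other tests and the isoform families; genes added for overlap of windows, for CT 40 and from the neighbouring lists were chosen after their values were seen. Alternatives were another filter or scaling, probe set averaging, array weights, covariates and leaving out arrays or a cycle.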

Additional observations from a re-analysis of the deposited data

How the results depend on the processing

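The 10 members called for a 24-h rhythm became 6 without the brightness filter, 0 without the 3 arrays of narrow spread (CT 40, CT 62 and CT 64), 0 once array background entered as a covariate, 28 with the oligodendrocyte markers as a covariate, 0 in the first and 0 in the second cycle alone (18 and 5 at an unadjusted p under 0.05 in the second and the first cycle, limma) and 0 at a threshold of 0.01. The calls over all genes shifted too. Their share was 4% without the filter (members 6.74%), 4.87% without the 3 arrays and 3.83% with the background covariate. It was 24.3% with the oligodendrocyte covariate (members 32.6%), 0.115% in the first cycle alone and 0.58% in the second. Leaving out each array in turn gave from 1 call (without CT 62, 1.16% of members against 5.17% of all genes) to 13 (without CT 26, 15.1% against 10.3%). The count was at most 6 also without CT 18, 22, 24, 28, 36, 38, 46, 48, 50, 52, 60 or 64, and 11 without CT 40. In those fits 3.49% to 6.98% of members and 5.04% to 6.57% of all genes were called, and without CT 40 12.8% and 7.89%. The count was 9 with the filter at the 50th percentile, 7 with quantile normalisation, 7 with median centring, 10 with probe sets averaged and 14 with array weights. With the 50th percentile filter the members' share (10.7% of 84) was below that of all genes (12.4%). In the other 4 settings the shares were 8.14% against 7.24%, 8.14% against 7.51%, 11.6% against 7.72% and 16.3% against 11.2%. None of the 10 peaks moved by more than 6 h under any of these. The change between cycles, 0 calls, gave 1 (Atp5g2, 1.16% of members against 0.473% of all genes) with the background covariate. The 12 circadian times shared by the cycles were also fitted as pairs, and this replicate block gave 0 calls, as without the block. The members lower at CT 0 to 4 without overlap, 0 in all (0.86% of all genes), were 1 without the 3 narrow arrays (5.45% of all genes). The cause of these changes was not tested. The 12-h and rhythm-change counts stayed at 0 under every alternative run. The amplitudes and cycle differences of the complex means moved by less than their residual spread. That spread (0.05 to 0.10) was above the amplitude itself in every complex, so this cannot show that the amplitudes held. With the background covariate the amplitude went from 0.01 to 0.04 in complex I and from 0.05 to 0.02 in complex V. The peaks of the means of complexes III and V moved by more than 6 h with that covariate. With 1 array per time, a member's scatter limits which rhythms can be called.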
